A study of Homo sapiens with 4 samples.

Results

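The mitochondrial ribosomal proteins (MRPs) were taken as every gene of the expression table whose symbol is MRPL or MRPS followed by a number and at most 1 letter. This gave 78 of 57815 genes, which carry 76 different symbols: 48 MRPL genes, named for the large subunit, and 30 MRPS genes, named for the small subunit. Transcript levels were measured by RNA-Seq of polyadenylated RNA in HCT116, a human colorectal cancer cell line, with 2 libraries from the unedited parental cells (control) and 2 libraries from 3′ WRE-Mut cells. In 3′ WRE-Mut cells, CRISPR/Cas9 removed TBE1, a TCF binding element of the Wnt-responsive enhancer downstream of MYC, from both alleles. Both 3′ WRE-Mut libraries came from 1 clone, so the effect of the deletion and other differences between this clone and the parental population cannot be told apart. The comparison asks how MRP transcripts differ between cells with and without TBE1.

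The mitochondrial ribosome translates the few messenger RNAs that are made from the mitochondrial genome, all of which encode subunits of the oxidative phosphorylation complexes. Its proteins are encoded in the nucleus, made in the cytoplasm and imported, and they assemble with ribosomal RNAs that are transcribed inside the organelle. Some are homologues of bacterial ribosomal proteins, whereas others are found only in mitochondria. MYC, a transcription factor that drives cell growth, is known to act on nuclear genes for mitochondrial biogenesis.

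Promoter windows of MRPS18A, MRPS18B, MRPS18C and MRPL22 are shown, because the first 3 genes encode homologues of the same bacterial protein and had log2 differences of different sign, and MRPL22 had the highest log2 difference among the MRPL genes. The sequences are from RefSeq on build GRCh38.p14, run 5′ to 3′ on the strand of the gene, and span 250 bases before to 50 bases from the annotated start. The windows are chr6:43687742-43688041 on the minus strand for MRPS18A, chr6:30617590-30617889 on the plus strand for MRPS18B, chr4:83455808-83456107 on the plus strand for MRPS18C and chr5:154940823-154941122 on the plus strand for MRPL22. Capitals mark matches, on either strand, to the letters CACGTG (the E-box bound by MYC with MAX), CCGGAAG (an ETS motif, as bound by GABPA), GCATGCG (a core of the NRF1 motif) or AAGATGG (a core of the YY1 motif), where the 2 overlapping NRF1 matches of MRPS18C and of MRPL22 appear as 1 run of capitals.
MRPS18A: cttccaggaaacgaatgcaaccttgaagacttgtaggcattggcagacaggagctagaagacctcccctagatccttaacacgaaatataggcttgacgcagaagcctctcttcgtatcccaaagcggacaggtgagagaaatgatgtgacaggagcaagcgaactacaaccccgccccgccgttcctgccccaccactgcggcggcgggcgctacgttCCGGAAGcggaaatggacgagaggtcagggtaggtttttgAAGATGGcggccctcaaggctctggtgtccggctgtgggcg
MRPS18B: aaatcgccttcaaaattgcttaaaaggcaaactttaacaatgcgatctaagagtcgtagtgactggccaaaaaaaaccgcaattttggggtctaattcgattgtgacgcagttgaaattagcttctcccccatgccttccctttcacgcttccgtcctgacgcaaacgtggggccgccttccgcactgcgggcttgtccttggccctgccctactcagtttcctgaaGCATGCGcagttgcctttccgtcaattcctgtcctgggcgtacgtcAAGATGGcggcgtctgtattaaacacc
MRPS18C: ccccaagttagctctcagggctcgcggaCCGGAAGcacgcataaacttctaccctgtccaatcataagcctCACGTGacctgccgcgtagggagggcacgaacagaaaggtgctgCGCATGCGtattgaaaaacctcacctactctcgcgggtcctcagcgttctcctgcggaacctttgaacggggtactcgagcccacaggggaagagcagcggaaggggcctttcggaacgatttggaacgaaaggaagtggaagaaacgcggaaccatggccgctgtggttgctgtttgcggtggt
MRPL22: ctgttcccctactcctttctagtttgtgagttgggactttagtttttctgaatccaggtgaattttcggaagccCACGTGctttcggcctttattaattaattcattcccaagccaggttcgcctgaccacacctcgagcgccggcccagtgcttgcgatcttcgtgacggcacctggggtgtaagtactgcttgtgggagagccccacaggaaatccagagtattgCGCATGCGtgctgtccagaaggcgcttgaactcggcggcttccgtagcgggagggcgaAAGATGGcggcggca
MRPS18A held an ETS and a YY1 match, MRPS18B an NRF1 and a YY1 match, MRPS18C an E-box, an ETS and an NRF1 match, and MRPL22 an E-box, an NRF1 and a YY1 match. A match is a run of letters and does not show that a factor binds there.

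Across the family, ETS and YY1 letters were common and E-boxes were not. A window was found for 67 of the 76 symbols, while MRPL2, MRPL10, MRPL13, MRPL15, MRPL21, MRPL23, MRPL35, MRPS28 and MRPS36 had none in the table used here. The ETS letters lay in 28 of the 67 windows (41.8%), against 12.8% of 22199 protein-coding promoters and 10.3% of all 35116 promoters of the same length. The YY1 letters lay in 23 MRP windows (34.3%), against 6.04% of protein-coding and 5.84% of all promoters. The NRF1 letters lay in 7 MRP windows (10.4%), those of MRPL17, MRPL22, MRPL32, MRPL52, MRPS15, MRPS18B and MRPS18C, against 4.63% and 3.91%. The E-box lay in 6 MRP windows (8.96%), those of MRPL22, MRPL36, MRPL37, MRPL45, MRPL49 and MRPS18C, a share close to the 8.34% of protein-coding promoters and the 7.26% of all promoters. These shares are a description of the windows, and no test was run on them.

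**Figure D1:**
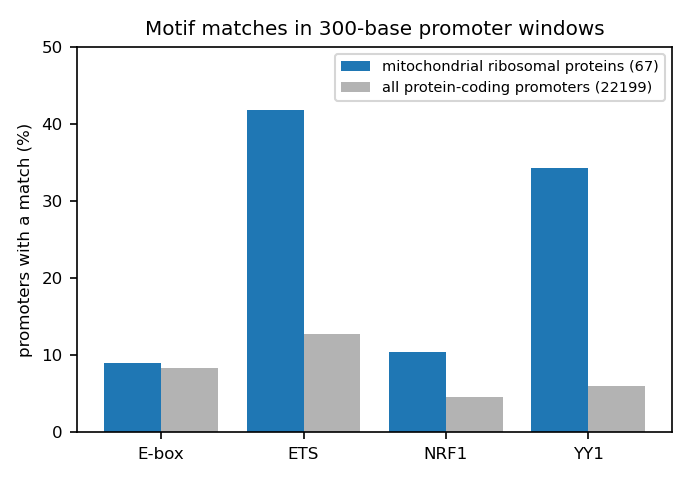
Share of promoter windows of 300 bases that hold each motif on either strand, in percent, for the 67 MRP genes (blue) and for all 22199 protein-coding promoters (grey). The ETS and YY1 bars of the MRP genes, at 41.8% and 34.3%, stand above the grey bars at 12.8% and 6.04%, while the E-box bars are at 8.96% and 8.34%.

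Expression was given as FPKM, fragments scaled by transcript length and by the mapped fragments of the library, and tests were run with limma on log2(FPKM + 1), a scale that understates the fold change of low genes. MYC, next to which the deleted element lies, stood at 111 and 113 FPKM in the control libraries and at 48.0 and 34.2 FPKM in the 3′ WRE-Mut libraries. Its coding sequence was not edited, so this checks the labels only through the level of MYC, which was 2.72-fold higher in the controls (log2 difference -1.44 ± 0.25, SE, limma adjusted p = 0.0216 over protein-coding genes and 0.149 over all tested genes). Without control replicate 1 its adjusted p over protein-coding genes was 0.101, and without control replicate 2 it was 0.107. The spacing of the lowest values implied roughly 13700000 to 18700000 reads per library, although only 62.5% to 64.7% of low values lay within 0.15 of a whole read, so read counts were not recovered. Of 10 colon epithelium markers 6 had a mean of at least 1 FPKM, namely KRT8, KRT18, KRT19, EPCAM, CDH1 and CDX2, while CDX1 was at 0 in all 4 libraries. The summed level of the 10 markers was 2621 to 2865 FPKM in control and 1810 to 1920 FPKM in 3′ WRE-Mut libraries, and its part in the results was not tested. All 4 leukocyte markers and both endothelial markers were below 1 FPKM in every library, and of 5 fibroblast markers only COL1A1 had a mean of at least 1 FPKM, with list sums of 14.5 to 17.4 FPKM in control and 21.4 to 29.1 FPKM in 3′ WRE-Mut libraries.

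MRP transcripts were moderately abundant. Of the 78 genes, 76 averaged 1 FPKM or more across the 4 libraries and were tested, with means from 4.16 to 186 FPKM and a median of 38.9 FPKM, whereas the median of all 14815 tested genes was 8.74 FPKM. The untested genes were second entries with the symbols MRPL30 and MRPS17, each overlapping the main entry of that symbol. The MRPL30 entry stood at 0.203 and 0.366 FPKM in control and 1.25 and 2.14 FPKM in 3′ WRE-Mut libraries, with no overlap between the groups. The MRPS17 entry stood at 0.0494 and 0.454 against 0.378 and 0.943 FPKM, with overlap. The highest MRPL genes were MRPL52 and MRPL38, both of the central protuberance of the large subunit, and MRPL17, a protein near the exit of the peptide tunnel. MRPL52 stood at 176 and 143 FPKM in control and 181 and 246 FPKM in 3′ WRE-Mut libraries, and MRPL38 at 200.4 and 178 against 170.0 and 122 FPKM. MRPL17 stood at 127 and 149 FPKM in control and 229 and 142 FPKM in 3′ WRE-Mut libraries. The groups did not overlap for MRPL52, which was higher in 3′ WRE-Mut, or for MRPL38, which was lower, and they overlapped for MRPL17. The highest MRPS genes were MRPS34, at 120.3 and 89.2 against 133 and 123 FPKM, MRPS24 and MRPS22. The lowest MRPL genes were MRPL50, at 3.99 to 5.19 FPKM over the 4 libraries, MRPL39, at 7.44 to 9.05 FPKM, and MRPL19, at 7.96 to 11.9 FPKM. The lowest MRPS genes were MRPS16, at 3.10 to 6.67 FPKM, MRPS17 and MRPS31. The groups overlapped for MRPL50, MRPL39, MRPL19 and MRPS16. No MRP gene was listed at 0 in any library.

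As a family, the MRP transcripts did not shift in 1 direction. The median log2 difference between 3′ WRE-Mut and control was 0.00 over the 76 tested genes, with 38 above and 38 below 0, against a median of -0.03 over all tested genes. In the limma fit over all tested genes, no MRP gene passed an adjusted p of 0.05 in either direction, where 0.0877% of the 14815 genes were called higher and 0.101% lower. Taking unadjusted p-values under 0.05, 5 MRP genes were higher and 6 lower, against 11.0% and 11.2% of all tested genes. The fit over 11631 protein-coding genes, in which 4.02% were called higher and 4.31% lower, held 74 of the MRP genes, since MRPL45 and MRPS21 had no entry in the annotation used. In it no MRP gene was called higher, and 1, MRPL15, was called lower. At an unadjusted p under 0.05 that fit gave 6 MRP genes higher and 11 lower, against 14.6% and 15.6% of the protein-coding genes.

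Single members nevertheless lay on either side of 0. Of the 74 MRP genes in the protein-coding fit, none was more than 1 log2 unit higher in 3′ WRE-Mut, where 5.38% of the protein-coding genes were. In that fit 3 were more than 1 log2 unit lower (MRPL15, MRPS31 and MRPS18A), where 7.18% were. Past 0.5 log2 units, 6 of 74 were higher (8.11%, against 19.9% of the protein-coding genes) and 14 lower (18.9%, against 22.3%). The standard deviation of the log2 differences was 0.46 over the 76 MRP genes and 0.68 over the protein-coding genes, with no test of that difference. These sets differ in level, with medians of 38.9 and 10.5 FPKM, and in replicate spread. The SD of the difference between control replicates was 0.27 for the MRP genes and 0.36 for the protein-coding genes. Between 3′ WRE-Mut replicates it was 0.45 and 0.55. The part of level and replicate spread in these shares was not tested. Counting genes whose 2 values in one group both lay outside the range of the other, 20 MRP genes were higher (26.3%) and 20 lower (26.3%), against 28.7% and 30.6% of all tested genes. With 2 libraries against 2, an exact permutation test of a single value cannot give a two-sided p below 0.333, so p-values rest on limma's shared variance, and they measure only the spread between these libraries.

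**Figure D2:**
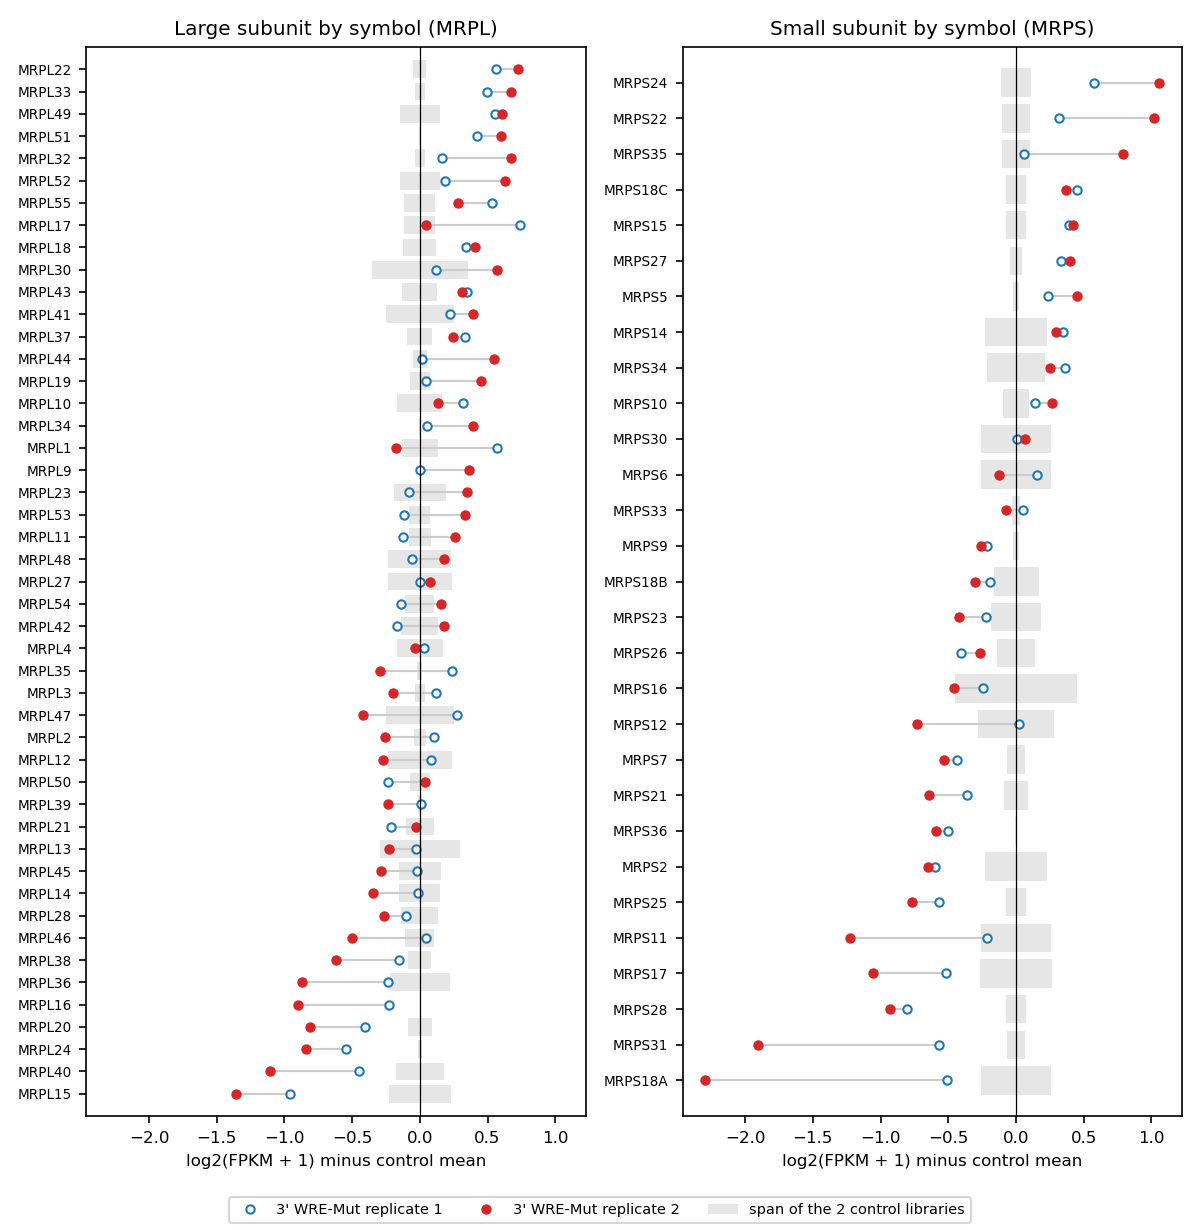
Level of each of the 76 tested MRP genes in the 2 3′ WRE-Mut libraries (open and filled circles) relative to the control mean, in log2(FPKM + 1), with MRPL genes on the left and MRPS genes on the right, sorted by mean difference. Grey bars span the 2 control libraries around their mean. MRPL15 and MRPS18A lie at the bottom, MRPL22 and MRPS24 at the top, and the filled circle lies farther from 0 than the open one for 63 of the 76 genes.

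MRPL15, the homologue of a bacterial large-subunit protein, was the MRP gene that passed the threshold. It stood at 21.7 and 15.5 FPKM in the control libraries and at 8.96 and 6.57 FPKM in the 3′ WRE-Mut libraries. Both 3′ WRE-Mut values lay below both control values, and the control mean was 2.40-fold the 3′ WRE-Mut mean (log2 difference -1.16 ± 0.28, SE, limma adjusted p = 0.0450 over protein-coding genes, 0.164 over all tested genes). The call was close to the threshold and was lost without control replicate 1 (adjusted p = 0.330), without control replicate 2 (0.165), with a pseudocount of 0.1 (0.0550) and with no filter on low values (0.200). The confidence bounds deposited with its values overlapped between the groups. They were 9.84 to 33.6 and 6.66 to 24.4 FPKM in control and 2.72 to 15.2 and 2.35 to 10.8 FPKM in 3′ WRE-Mut libraries. The gene lies at chr8:55047801-55061074 on the plus strand (GRCh37).

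MRPS28, a small subunit protein encoded on the same chromosome arm at chr8:80830952-80942524 on the minus strand (GRCh37), came next. It stood at 34.9 and 38.7 FPKM in control and at 20.6 and 18.8 FPKM in 3′ WRE-Mut libraries. The confidence bounds deposited with these values were wide and overlapped between the groups. They were 0 to 86.4 and 0 to 102 FPKM in control and 0 to 57.4 and 0 to 59.0 FPKM in 3′ WRE-Mut libraries. The deposited locus is shared with 1 other protein-coding gene. The FPKM of MRPS28 were well apart between the groups and close between replicates, with a log2 difference of -0.87 ± 0.23 (SE). The limma adjusted p of MRPS28 was 0.0533 over protein-coding genes. It passed the threshold, at an adjusted p of 0.0427, when genes were required to have a mean of at least 5 FPKM, and at 0.0462 without 3′ WRE-Mut replicate 2. MRPL13, a homologue of a bacterial large-subunit protein, is the other MRP gene on chromosome 8 and stood at 83.4 and 55.0 FPKM in control and 66.4 and 57.7 FPKM in 3′ WRE-Mut libraries, so its groups overlapped. All 3 log2 differences on chromosome 8 were below 0, with a median of -0.87, while the median was 0.01 for the 73 other MRP genes. That of MRPL13 was -0.13, and its sign rested on control replicate 1, since control replicate 2 was below both 3′ WRE-Mut values. Over all tested genes of chromosome 8 the median log2 difference was -0.38, and its part in the values of MRPL15 and MRPS28 was not tested.

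The other MRP genes with the lowest moderated t did not pass the threshold, and in 2 of them 3′ WRE-Mut replicate 2 was far below replicate 1. MRPS31, a small subunit protein without a bacterial homologue, stood at 15.7 and 14.3 FPKM in control and at 9.77 and 3.26 FPKM in 3′ WRE-Mut libraries (log2 difference -1.24 ± 0.41, SE, limma adjusted p = 0.0852). MRPS18A stood at 50.2 and 35.0 FPKM in control and at 29.1 and 7.75 FPKM in 3′ WRE-Mut libraries (-1.40 ± 0.50, SE, limma adjusted p = 0.101). In both genes the groups did not overlap, but the 3′ WRE-Mut libraries differed from each other more than the control libraries did. MRPL24, a protein near the exit of the peptide tunnel, stood at 43.5 and 44.4 FPKM in control and at 29.7 and 24.1 FPKM in 3′ WRE-Mut libraries (-0.70 ± 0.24, SE, limma adjusted p = 0.0911). Its control libraries agreed closely, and both 3′ WRE-Mut values were lower, but its deposited confidence bounds overlapped between the groups. MRPS25, MRPL40 of the central protuberance, MRPS17, MRPL20 and MRPS36 had log2 differences of -0.67, -0.78, -0.79, -0.61 and -0.55, with limma adjusted p-values between 0.115 and 0.139 over protein-coding genes and no overlap between the groups. For MRPS25, MRPL40 and MRPS17 the deposited confidence bounds reached down to 0 FPKM in every library. Loci of these genes are shared with 2, 3 and 2 other protein-coding genes. MRPS36, named as a ribosomal protein, is now known as a component of the 2-oxoglutarate dehydrogenase complex.

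The MRP genes with the highest moderated t did not pass the threshold either. MRPS24, the homologue of a bacterial protein at the messenger RNA entry of the small subunit, stood at 58.0 and 49.8 FPKM in control and at 80.6 and 113 FPKM in 3′ WRE-Mut libraries. Its 3′ WRE-Mut mean was 1.80-fold the control mean (log2 difference 0.82 ± 0.25, SE, limma adjusted p = 0.0739 over protein-coding genes), with no overlap. MRPL22, whose bacterial homologue lines the peptide tunnel, stood at 46.1 and 43.1 FPKM in control and at 66.3 and 74.2 FPKM in 3′ WRE-Mut libraries (0.64 ± 0.22, SE, limma adjusted p = 0.0973). Its window, shown above, was 1 of the 6 with an E-box. The deposited confidence bounds of MRPS24 and of MRPL22 overlapped between the groups. MRPL33 stood at 20.4 and 19.3 against 28.4 and 32.3 FPKM, MRPL49 at 26.2 and 32.3 against 43.2 and 44.8 FPKM, and MRPS22 at 47.8 and 55.2 against 64.1 and 105 FPKM. In all 3 both 3′ WRE-Mut libraries were above both controls, and the log2 differences were 0.59, 0.58 and 0.67. Their deposited confidence bounds reached down to 0 FPKM in every library, and their loci are shared with 2, 2 and 4 other protein-coding genes. MRPL51, MRPS18C, MRPS15, MRPL55 and MRPL18 were the other members at this end, with log2 differences between 0.37 and 0.51, limma adjusted p-values between 0.160 and 0.295 and no overlap between the groups.

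**Figure D3:**
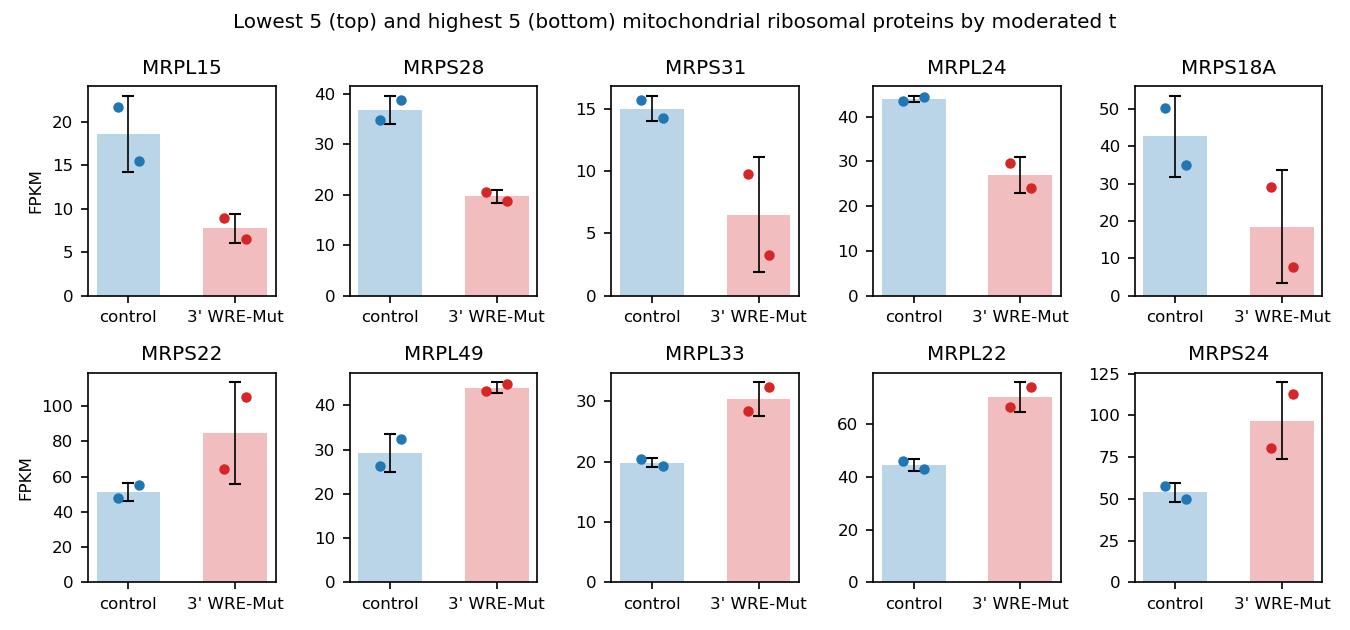
FPKM of the 5 MRP genes with the lowest and the 5 with the highest moderated t over protein-coding genes. Points are single libraries, bars are means and error bars are SDs of 2 libraries per group. The 2 groups do not overlap in any of the 10 panels, and for MRPS31, MRPS18A, MRPS22 and MRPS24 the 3′ WRE-Mut libraries lie far apart.

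The 3 genes related to 1 bacterial small-subunit protein had log2 differences of different sign. MRPS18C, which holds that protein's place in the small subunit, stood at 50.8 and 45.8 FPKM in control and at 66.4 and 62.7 FPKM in 3′ WRE-Mut libraries, a log2 difference of 0.41 ± 0.22 (SE, limma adjusted p = 0.245 over protein-coding genes). MRPS18B, another small subunit protein, stood at 42.2 and 53.4 against 41.4 and 38.3 FPKM (-0.25 ± 0.24, SE, limma adjusted p = 0.508), and MRPS18A, which structures place in the large subunit, had the lowest log2 difference of the family, given above. Both 3′ WRE-Mut values were above the controls for MRPS18C and below them for MRPS18A and MRPS18B. None of the 3 passed the threshold, and the differences between them were not tested.

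By subunit, the MRPL genes lay around 0 and the MRPS genes were spread more widely. Of the 47 tested MRPL genes 26 were above and 21 below 0, with a median log2 difference of 0.04, and 18 (38.3%) did not overlap between the groups. Of the 29 tested MRPS genes 12 were above and 17 below 0, with a median of -0.25, and 22 (75.9%) did not overlap, 9 of them higher and 13 lower, where 59.3% of all tested genes did not overlap. Placing MRPS30 and MRPS18A in the large subunit and leaving out MRPS36, as structures do, gave a median of 0.04 over 49 large and of -0.24 over 26 small subunit genes. The 28 MRPL genes with bacterial homologues had a median of 0.02 and ranged from -1.16 to 0.64, and the 19 mitochondria-specific ones had a median of 0.06 and ranged from -0.78 to 0.58. The 17 MRPS genes listed as bacterial homologues had a median of -0.25 and ranged from -1.40 to 0.82, with 7 above and 10 below 0, and the 12 others had a median of -0.16 and ranged from -1.24 to 0.67. The difference between the subunits was not tested.

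Summed over genes, the levels of both subunits differed little between the groups. The MRPL genes summed to 2688 and 2345 FPKM in the control libraries and to 2766 and 2651 FPKM in the 3′ WRE-Mut libraries, and the 3′ WRE-Mut mean was 108% of the control mean. The groups overlapped as deposited, but under median-ratio scaling the 3′ WRE-Mut sums were 2726 and 2676 against 2533 and 2407 in control, with no overlap. The log2 ratio of the MRPL sums was 0.11, and it was 0.21 without control replicate 1 and 0.01 without control replicate 2. The MRPS genes summed to 1121 and 980.3 FPKM in control and to 1063 and 1065 FPKM in 3′ WRE-Mut libraries, 101% of the control mean, with both 3′ WRE-Mut values between the controls, whereas under median-ratio scaling 3′ WRE-Mut replicate 2, at 1076, was above both controls, at 1056 and 1006. The ratio of the MRPS to the MRPL sum was 0.417 and 0.418 in control and 0.384 and 0.402 in 3′ WRE-Mut libraries. The ratio by symbol was thus lower in both 3′ WRE-Mut libraries, by 0.09 on the log2 scale, and no test was run on it. With subunits assigned by structure as above, small subunit sums were 980.6 and 869.7 FPKM in control and 964.5 and 988.4 in 3′ WRE-Mut. Large subunit sums were then 2785 and 2412 against 2834 and 2699 FPKM. On these sums the ratio in 3′ WRE-Mut replicate 2 was above both controls, so the lower ratio depended on the assignment. In bulk RNA of this kind, fewer cells with a transcript and less of it per cell cannot be told apart.

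**Figure D4:**
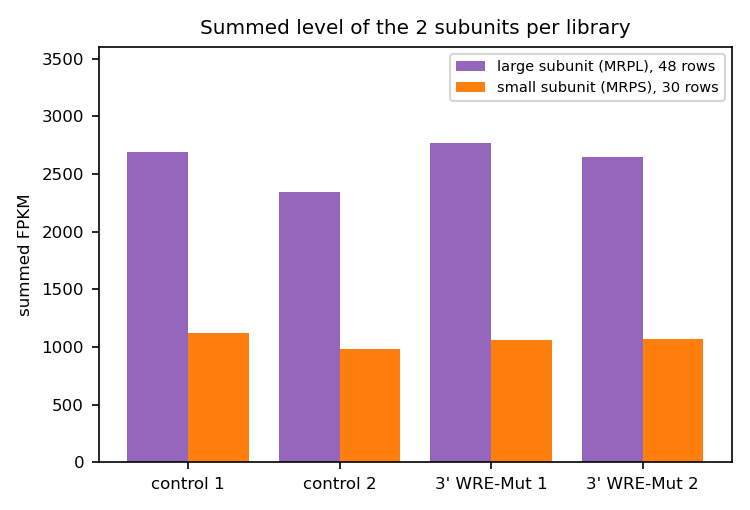
Summed FPKM of the 48 MRPL (purple) and 30 MRPS (orange) genes in each of the 4 libraries. The MRPL sums run from 2345 to 2766 FPKM and the MRPS sums from 980.3 to 1121 FPKM, and the lowest bar of each is control replicate 2.

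The replicates of each group differed in a way that touched the whole family. Control replicate 1 was above control replicate 2 for 57 of 76 MRP genes (75.0%, median difference 0.18 on the log2 scale), where it was above for 62.3% of all tested genes (median 0.10). Leaving out control replicate 1 moved the median log2 difference of the MRP genes from 0.00 to 0.15, and leaving out control replicate 2 moved it to -0.10, so the median of 0 lay between the controls. The difference from the control mean was larger in 3′ WRE-Mut replicate 2 than in replicate 1 for 63 of 76 MRP genes (82.9%, against 68.8% of all tested genes), with a median absolute difference of 0.40 against 0.23. Both 3′ WRE-Mut libraries lay on the same side of the control mean for 56 of the 76 genes (73.7%, against 76.9%), 30 of 47 MRPL and 26 of 29 MRPS genes. Without 3′ WRE-Mut replicate 1, the protein-coding fit called 6 MRP genes higher and 13 lower, and 17.4% and 19.9% of the protein-coding genes. Without control replicate 1, or without control replicate 2, it called none (limma, unadjusted p under 0.05 for 1 higher and 2 lower, and for 0 higher and 6 lower), where 0.284% higher and 0.370% lower, and 0.189% and 0.516%, of the protein-coding genes were called.

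Genes that work beside the MRPs were compared by list, with no test of any list as a whole. The counts below stand beside 4.02% of all protein-coding genes called higher by limma and 4.31% called lower. At an unadjusted p under 0.05 these shares were 14.6% and 15.6%. The 7 other proteins of the mitochondrial ribosome, whose symbols do not follow the MRPL and MRPS pattern, all had log2 differences below 0 with a median of -0.34, and 0 passed the threshold in the limma fit over protein-coding genes (1, PTCD3, had an unadjusted p under 0.05). PTCD3, an RNA-binding protein of the small subunit, was lowest, at 39.2 and 33.5 FPKM in control and 23.3 and 17.2 FPKM in 3′ WRE-Mut libraries (-0.82 ± 0.25, SE, limma adjusted p = 0.0747). AURKAIP1, also of the small subunit, stood at 114 and 94.6 against 110 and 98.3 FPKM and was closest to 0, with a value of 0.00 that turned from below to above 0 under median-ratio scaling. The list as a whole shared the pattern between controls, since control replicate 1 was above control replicate 2 for all 7.

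Of 28 genes for mitochondrial ribosome assembly and the handling of mitochondrial RNA, 22 had log2 differences below and 6 above 0, with a median of -0.25. Of the 27 in the protein-coding fit 1 rose and 2 fell, where 4.02% of all protein-coding genes were called higher and 4.31% lower. METTL17, an assembly factor of the small subunit, rose from 17.6 and 23.1 FPKM in control to 47.9 and 50.0 FPKM in 3′ WRE-Mut libraries (1.23 ± 0.24, SE, limma adjusted p = 0.0288). TRMT61B, which methylates ribosomal RNA of the large subunit, fell from 8.62 and 6.80 FPKM to 2.38 and 0.610 FPKM (-1.89 ± 0.38, SE, limma adjusted p = 0.0293). MTERFD1, a member of the mitochondrial transcription termination factor family, fell from 10.5 and 8.99 FPKM to 4.63 and 3.06 FPKM (-1.17 ± 0.29, SE, limma adjusted p = 0.0450), and lies on chromosome 8, whose median log2 difference is given above and whose part in this value was not tested. Relative to the control mean, the 2 3′ WRE-Mut libraries lay at 1.20 and 1.27 on the log2 scale for METTL17. They were farther apart for MTERFD1, at -0.93 and -1.40, and farthest apart for TRMT61B, at -1.36 and -2.43. The limma adjusted p of these 3 genes was 0.155 to 0.163 in the fit of all tested genes. In the protein-coding fit all 3 calls were lost without control replicate 1 (0.155 to 0.298), without control replicate 2 (0.103 to 0.208) and with no filter on low values (0.190 to 0.207), and that of MTERFD1 also with a pseudocount of 0.1 (0.0554).

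Translation factors and aminoacyl-tRNA synthetases of the mitochondrion lay evenly around 0. Of 18 translation genes 9 were above and 9 below 0 (median -0.05), and none passed the limma threshold over protein-coding genes, although 4 had an unadjusted p under 0.05, 2 in each direction. Over all protein-coding genes 14.6% were higher and 15.6% lower at that unadjusted p, and 4.02% and 4.31% passed the threshold. OXA1L, which inserts the newly made proteins into the inner membrane, stood at 71.9 and 57.0 FPKM in control and at 114 and 114 FPKM in 3′ WRE-Mut libraries (0.82 ± 0.23, SE, limma adjusted p = 0.0582). TACO1, an activator of cytochrome oxidase translation, stood at 18.96 and 18.5 against 14.2 and 3.91 FPKM (-1.19 ± 0.46, SE, limma adjusted p = 0.122). Of 20 synthetase genes 10 were above and 10 below 0 (median -0.01), and 1, MARS2 for methionine, fell from 4.83 and 3.81 FPKM to 1.65 and 0.613 FPKM (-1.36 ± 0.32, SE, limma adjusted p = 0.0426). That call was lost without control replicate 1 (limma adjusted p = 0.258), without control replicate 2 (0.170), with no filter (0.210) and with a pseudocount of 0.1 (0.0595).

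Transcripts of the mitochondrial genome itself, the templates and ribosomal RNAs of the mitochondrial ribosome, had a median log2 difference of -0.50 over 15 genes, with 12 below and 3 above 0. The 13 messenger RNAs had a median of -0.52, with 11 below and 2 above 0. Of the ribosomal RNAs, MT-RNR1 stood at 17155 and 9482 FPKM in control and 29778 and 15587 FPKM in 3′ WRE-Mut libraries (log2 difference 0.76). MT-RNR2 stood at 21289 and 21961 against 17555 and 22971 FPKM (-0.11), and the groups overlapped for both. MT-CYB, the messenger RNA of cytochrome b, fell from 7382 and 6372 FPKM in control to 3082 and 2577 FPKM in 3′ WRE-Mut libraries (-1.28 ± 0.30, SE, limma adjusted p = 0.0411 over protein-coding genes) and was the only one of the 13 protein-coding ones past the threshold. Its call was lost with no filter (limma adjusted p = 0.228), without 3′ WRE-Mut replicate 2 (0.120) and without control replicate 1 (0.215) or 2 (0.151). In this list control replicate 1 was above control replicate 2 for 2 of 15 genes, the opposite of the MRP genes. Among 10 tested regulators of mitochondrial biogenesis, 7 were above and 3 below 0 with a median of 0.29, and MYC was the 1 that passed the threshold. GABPA, NRF1 and YY1, the factors whose motif letters were counted in the promoter windows, had log2 differences of 0.33, 0.11 and 0.64 with limma adjusted p-values of 0.522, 0.813 and 0.133.

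Cytoplasmic ribosomal proteins lay mostly above 0 and showed the same gap between the controls. Of the 83 tested, 72 had log2 differences above and 11 below 0, with a median of 0.33, and the protein-coding fit called 0 higher and 1 lower, the Y-linked RPS4Y1. The list was taken by symbol, so it also holds the paralogs RPL7L1, RPL22L1, RPL26L1 and RPS27L, all of them below 0. RPL12L3, annotated as a processed pseudogene, is in it too, at 0.41. At an unadjusted p under 0.05 limma gave 8 higher and 2 lower of the 81 in the protein-coding fit. Over all protein-coding genes those shares were 14.6% and 15.6%. Control replicate 1 was above control replicate 2 for all 83 genes, with a median difference of 0.32 on the log2 scale, close in size to the median between the groups. The difference between the lists was not tested.

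**Figure D5:**
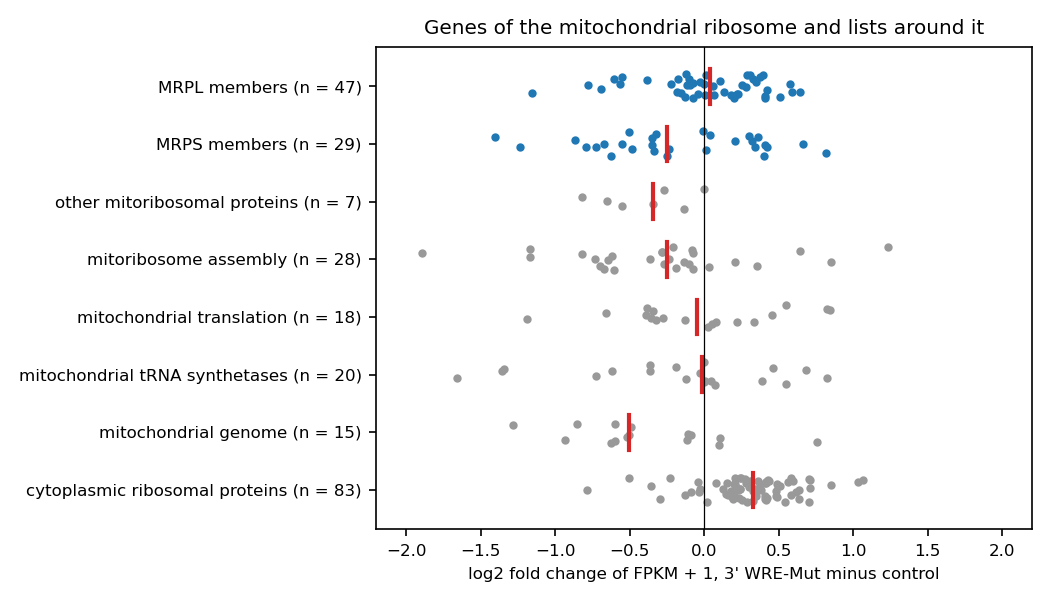
Log2 difference between 3′ WRE-Mut and control of each tested gene of the MRPL and MRPS families (blue) and of 6 lists around the mitochondrial ribosome (grey), on the log2(FPKM + 1) scale. Red bars are medians, from -0.50 for the mitochondrial genome to 0.33 for the cytoplasmic ribosomal proteins, and 1 cytoplasmic ribosomal protein gene lies left of the axis and is not drawn.

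Promoter letters and differences in level were set side by side without a test. The 6 MRP genes with an E-box had a median log2 difference of 0.35, with 4 above and 2 below 0, and the 61 without one had a median of 0.01. The 7 with NRF1 letters had a median of 0.41, with 6 above and 1 below 0, against 0.00 for the 60 without. The 28 with ETS letters and the 23 with YY1 letters had medians of -0.02 and -0.07, against 0.07 and 0.05 for those without. MRPL22 and MRPS18C belonged to both the E-box and the NRF1 groups, so these small groups share members.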

How the data were processed

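RNA-Seq was performed by the study on 2 control and 2 3′ WRE-Mut libraries of HCT116 cells. The authors used the FASTX-Toolkit to clean the reads, TopHat2 2.0.9 for alignment to hg19, and Cufflinks with the Gencode v19 annotation to obtain FPKM per gene in each library, and the submitters' processing notes name Cufflinks 2.2.1. The deposited FPKM are already scaled for depth and transcript length, and no read counts were used. The confidence bounds deposited with the FPKM did not enter the tests. The deposited loci are partly merged: 37 of the 76 tested MRP genes share a locus with another protein-coding gene, MRPL46 and MRPS11 with each other, and read strand is not given in the sources used here, so overlapping genes may not be told apart. The authors' second table of group values, fold changes, p-values and q-values from Cuffdiff was not used.

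In R 4.3.3, limma 3.58.1 was fitted by group to log2(FPKM + 1) for genes averaging 1 FPKM or more, using a variance trend, Benjamini-Hochberg adjustment over all fitted genes and a two-sided threshold of 0.05, once over all genes and once over protein-coding genes. Gene classes and GRCh37 coordinates came from Gencode v44lift37, which covers 55535 of the 57815 genes. No covariate was used. Samples were grouped by their labels, and where a library was left out, the lone one of its group is assumed to vary like the others. Genes were named if they passed the threshold in either fit, were among the 10 highest or 10 lowest MRP genes by moderated t, had the 3 highest or lowest mean FPKM of their subunit, were an MRPS18 paralog or MYC, or, in the lists around the ribosome, passed the threshold or had the highest or lowest moderated t where none did. MRPL13, the MRP genes named by their promoter letters, and GABPA, NRF1 and YY1 were named outside this rule after their values were seen. The MRP genes and all lists were chosen with earlier results of these data known. The fits were tested on simulated data. Alternatives were pseudocounts of 0.1 and 0.5, the low-value filter removed or raised to 5 FPKM, median-ratio or quantile scaling, a constant or a robust variance prior, a replicate block, a threshold of 0.01 and each library left out in turn. The protein identity of the MRPS18 paralogs was planned and is not analysed here. Python 3.11.15 with matplotlib 3.10.9 drew the plots.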

Additional observations from a re-analysis of the deposited data

How the results depend on the processing

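Over all tested genes, no MRP gene was called under any of the settings tried. Over protein-coding genes, MRPL15 remained the 1 call under a pseudocount of 0.5, median-ratio scaling and no variance trend. The count of lower MRP genes was 0 at a threshold of 0.01, with a pseudocount of 0.1 and with no filter, and 2 (MRPL15 and MRPS28) with a mean of at least 5 FPKM, quantile normalization and a robust variance prior. Of all protein-coding genes, 2.26% were called lower with a pseudocount of 0.1, 0.00562% with no filter and 5.08% to 5.96% under those last 3 settings, against 4.31%. Leaving out 1 library gave 0 to 13 lower and 0 to 6 higher, with 13 and 6 without 3′ WRE-Mut replicate 1. Where limma called 0 lower, 11 were lower at an unadjusted p under 0.05 with a pseudocount of 0.1, 8 with no filter, and 2 and 6 without control replicates 1 and 2. Leaving out 1 library moved the log2 ratio of the small subunit sums, 0.02, to between -0.0754 and 0.118, and that of the large subunit sums, 0.11, to between 0.0109 and 0.208. The cause of these changes was not tested.

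Replicate numbers were not taken as pairing, since the labels tie them to no shared batch and there are only 2. Replicate differences of the 2 groups correlated at 0.06 over all tested genes, 0.11 over protein-coding genes and 0.29 over the MRP genes, across genes that are not independent. With a replicate block the protein-coding fit called 1 MRP gene higher (MRPS24) and 7 lower, and 11.0% and 13.6% of all protein-coding genes.

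MYC kept its direction under all settings, with a log2 difference from -1.68 to -1.20, and missed the threshold over protein-coding genes at 0.01 (-1.44, adjusted p = 0.0216), with no filter (-1.44, adjusted p = 0.190), without control replicate 1 (-1.45, adjusted p = 0.101) and without control replicate 2 (-1.43, adjusted p = 0.107). Among the genes named by the rule given above, the sign changed for MRPL50 with quantile normalization (0.0168) and for AURKAIP1 with median-ratio scaling (0.0076). Among these genes it also changed when 1 library was left out. The log2 difference then ran from -0.236 to 0.0393 for MRPL50 and from -0.238 to 0.0059 for MRPL39. It ran from -0.797 to 0.101 for MRPS16, which was at -0.35 over all 4 libraries, and from -0.139 to 0.132 for AURKAIP1. Other MRP genes changed sign too, since both 3′ WRE-Mut libraries lay on the same side of the control mean for only 56 of 76. GABPA, at -0.07 and 0.73 in 3′ WRE-Mut replicates 1 and 2, and NRF1, at 0.26 and -0.03, also lay on both sides. Median-ratio factors were 0.974 to 1.06 and moved the median of all tested genes by less than 0.1 on the log2 scale. Reads per gene are unknown, so the depth behind the lowest values could not be given.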

Other observations

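The table also holds 66 pseudogenes of the MRP genes, of which 54 were at 0 in all 4 libraries and 3 had a mean of at least 1 FPKM. MRPS31P5 stood at 2.35 and 1.72 FPKM in control and at 3.26 and 4.42 FPKM in 3′ WRE-Mut libraries, so both 3′ WRE-Mut values were higher, whereas the value of MRPS31 itself was lower in both. Short reads from near-identical copies can be assigned to either, and how MRPS31 and its copies shared reads was not tested. MRPL45P2 stood at 0.734 and 2.03 against 2.03 and 5.08 FPKM and MRPS31P4 at 1.97 and 1.19 against 0.705 and 1.53 FPKM, with overlap between the groups in both. The limma adjusted p over all tested genes was 0.260 for MRPS31P5, 0.342 for MRPL45P2 and 0.655 for MRPS31P4.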
